A study of Mus musculus with 12 samples.

Results

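The genes described here are 10 enzymes or enzyme subunits that make NADPH or take part in the defence against oxidants: Idh1, Me1, G6pdx, Pgd, Nqo1, Gclc, Gclm, Txnrd1, Srxn1 and Gsr. They were taken by name, together with all of their probe sets, out of 18193 genes named on the array. Idh1 was included because its level on these same arrays differed between cultures that received a single factor and the others. All of its values are therefore given as a description, with no test result. The platform table used here pairs no probe set with the name G6pdx, which was not analysed here. The other 9 genes had 22 probe sets, of which 20 passed a filter on dim probe sets (a signal above the median of the array on at least 3 arrays). Each of the 9 was compared through its brightest probe set, and test results are given for the 8 other than Idh1.

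RNA came from splenocytes of DBA/2 mice aged 10 weeks that had shared a culture with KLN-205 cells, a squamous lung tumour line of the mouse, for 9 days. SEMA3A, a semaphorin that is secreted and signals through neuropilins and plexins, was knocked down in the tumour cells of all groups, and IL-2, a growth factor of T cells, was given at 100 units/mL every 3 days. The SEMA6A+SEMA3A group had tumour cells that overexpressed SEMA6A, a transmembrane semaphorin, together with purified SEMA3A protein at 10 µg/mL. The SEMA6A group had the overexpressing cells alone, the SEMA3A group had the purified protein alone, and the control group had neither. Each of the 4 groups had 3 arrays. Whether these stand for 3 cultures, 3 animals or 1 culture is not stated in the labels, nor is whether the tumour lines are clones, so p-values measure only the spread between these arrays.

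NADPH is the electron donor that cells spend on fatty acid and sterol synthesis and on the reduction of glutathione and thioredoxin. It is made in the cytosol by the oxidative steps of the pentose phosphate pathway (G6pdx and Pgd), by malic enzyme (Me1) and by NADP-dependent isocitrate dehydrogenase (Idh1). Activated T cells make oxidants as they proliferate and use both glutathione and thioredoxin as they grow. Several of these enzymes are textbook targets of NRF2, a transcription factor that binds antioxidant response elements together with small MAF proteins.

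The sequences of the start sites are shown because the genes share this regulator in textbooks, while their signals here did not move alike. Windows of 250 bases before and 50 after an annotated start were taken from RefSeq, build GRCm38.p6. They were given for 7 of the 9 measured genes, in 12 windows. The core letters of the antioxidant response element, TGACNNNGC, were searched on both strands. They stood in 12.4% of all 32851 windows, and in 5 of the 12 windows here, 1 window each of Me1, Pgd, Gclm, Txnrd1 and Srxn1. The matches follow 5′ to 3′ on the strand of the gene with the core in capitals, in the forward sense in Me1 and Pgd and in the reverse complement in the others.
Me1, chr9:86695900-86695932, minus strand: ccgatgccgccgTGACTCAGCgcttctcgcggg
Pgd, chr4:149166059-149166091, minus strand: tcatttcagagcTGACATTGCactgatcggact
Gclm, chr3:122245411-122245443, plus strand: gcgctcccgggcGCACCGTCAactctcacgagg
Txnrd1, chr10:82859102-82859134, plus strand: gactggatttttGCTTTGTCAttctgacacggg
Srxn1, chr2:152105540-152105572, plus strand: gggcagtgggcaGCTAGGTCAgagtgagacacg

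Neither window of Idh1 held those letters, and nor did the window of Nqo1. Sequence outside these windows was not searched. Among the other 8 genes Pgd had the signals most like those of Idh1, as given below, and a window of each follows with CCAAT boxes (CCAAT) and GC boxes (GGGCGG), on either strand, in capitals. CCAAT stood in 37.4% of all windows and GGGCGG in 35.7%. A match describes the letters and does not show a bound site.
Idh1, chr1:65186430-65186729, minus strand: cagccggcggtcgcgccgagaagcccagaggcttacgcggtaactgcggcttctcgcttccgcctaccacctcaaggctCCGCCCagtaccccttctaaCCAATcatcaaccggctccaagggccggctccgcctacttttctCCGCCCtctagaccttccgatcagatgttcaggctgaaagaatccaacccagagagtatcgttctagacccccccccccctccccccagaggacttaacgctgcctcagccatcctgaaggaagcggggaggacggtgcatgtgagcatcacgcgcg
Pgd, chr4:149166656-149166955, minus strand: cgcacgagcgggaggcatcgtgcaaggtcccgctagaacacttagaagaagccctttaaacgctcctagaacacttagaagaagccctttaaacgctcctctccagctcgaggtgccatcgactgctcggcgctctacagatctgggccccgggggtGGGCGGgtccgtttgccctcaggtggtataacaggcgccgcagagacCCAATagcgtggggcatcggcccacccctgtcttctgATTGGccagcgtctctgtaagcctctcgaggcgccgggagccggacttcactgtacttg

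Values below are MAS5 signals, linear intensities of probe sets, with array medians of 42.5 to 53.5 and highest signals of 44046 to 53212. Signals cannot be set against each other between probe sets. Differences are on the scale of log2(signal + 16) after quantile normalization. SEMA6A replicate 2 stood apart, with a 3'/5' signal ratio of Gapdh, a sign of RNA quality, of 1.22 against 0.767 to 0.818 on the other 11 arrays, and differences of the brightest probe sets that leaving it out moves by over 1.5 times or turns in sign are given without it too. Dimmer probe sets were not refitted without it. T cell markers were bright, with Cd3e at 4039 to 6446 and Cd8a at 1613 to 3980, whereas Cd4, at 4.01 to 13, was below the filter. Of 18 squamous carcinoma markers 13 passed the filter, and Krt14, Krt17, Trp63, Pkp1 and Itgb4 did not. In these mixed cultures, fewer cells of a type and less RNA per cell cannot be told apart.

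Idh1 had higher signals on all 6 arrays with a single factor than on the 6 with both factors or neither. The signal of its brighter probe set, 1422433_s_at, was 468, 427 and 422 in the SEMA6A+SEMA3A group. It was 537, 1100 and 768 in the SEMA6A group, 808, 617 and 580 in the SEMA3A group, and 433, 464 and 447 in the control group. The lowest single-factor array, SEMA6A replicate 1, lay above the highest of the others, SEMA6A+SEMA3A replicate 1, so the groups did not overlap. Over the 6 single-factor arrays the signal averaged 735 ± 208, against 444 ± 19.2 over the other 6 (SD, n = 6 each), a ratio of 1.66. This separation is what Idh1 was chosen for, and of all 11325 genes tested 0.433% (49) had every single-factor array above every other. None of the other 8 genes did.

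**Figure D1:**
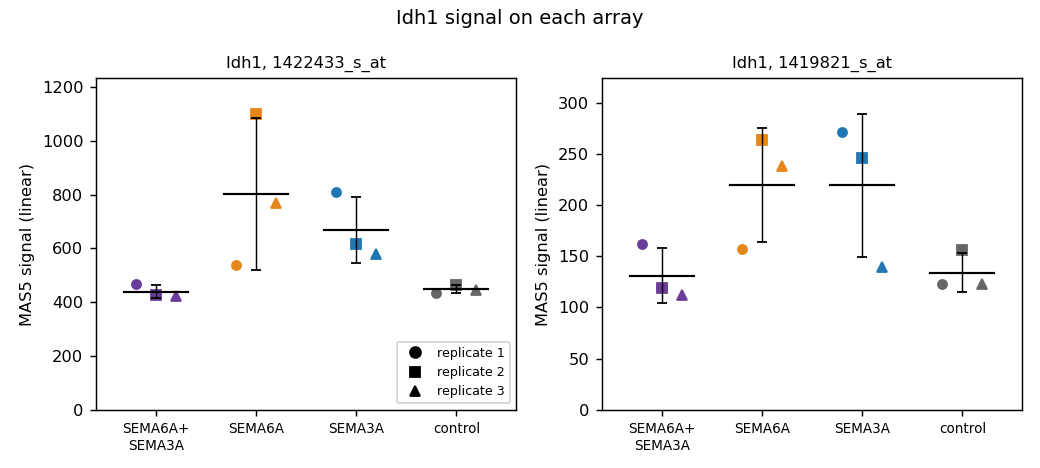
MAS5 signal (linear) of the 2 Idh1 probe sets on each array, by group; marker shapes give the replicate number, lines the group mean and bars the SD (n = 3). For 1422433_s_at the SEMA6A and SEMA3A arrays lie at 537 to 1100 and the others at 422 to 468; for 1419821_s_at the ranges of 140 to 272 and 112 to 162 overlap.

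The spread of Idh1 was wide within the single-factor groups and narrow elsewhere. The SD was 283 in the SEMA6A group and 122 in the SEMA3A group, against 25.1 in the SEMA6A+SEMA3A group and 15.2 in the control group (n = 3 each). The log2 difference from the control was 0.77 in SEMA6A cultures (SE 0.20, 1.71-fold) and 0.55 in SEMA3A cultures (SE 0.20, 1.47-fold). Without SEMA6A replicate 2 the SEMA6A difference was 0.52, and without replicate 1 it was 1.01. With both factors Idh1 stood 0.56 below SEMA3A alone (log2 difference of -0.56) and 0.78 below SEMA6A alone (-0.78, or -0.53 without SEMA6A replicate 2). The mean of the SEMA6A and SEMA3A groups minus the mean of the other groups, on the log2 scale, is here called the single-factor difference. For Idh1 it was 0.67, the 113th highest of 11325 genes when ranked by signed value.

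Within the groups that were set against each other in that choice, Idh1 differed less. With both factors against the control its log2 difference was -0.01 (95% interval -0.43 to 0.42). For SEMA6A against SEMA3A it was 0.22 (-0.21 to 0.64), and -0.03 without SEMA6A replicate 2. The choice of Idh1 used all 12 arrays, so these values are a description too.

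The second Idh1 probe set, 1419821_s_at, was dimmer and its groups overlapped. Its signal was 162, 119 and 112 in the SEMA6A+SEMA3A group, 157, 264 and 238 in the SEMA6A group, 272, 246 and 140 in the SEMA3A group and 123, 156 and 123 in the control group. SEMA6A replicate 1 and SEMA3A replicate 3 fell within the range of the arrays with both factors or neither. The ratio of the single-factor mean to the mean of the others was 1.67, and the log2 difference from the control was 0.59 for SEMA6A and 0.57 for SEMA3A.

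Several measures of the cultures varied along with Idh1 in part. The 3'/5' ratio of the transferrin receptor, another control of the array, was 12.2, 5.93 and 11.2 in the SEMA6A+SEMA3A group, 8.39, 35.7 and 23.3 in the SEMA6A group, 17.2, 17.6 and 18.1 in the SEMA3A group and 6.82, 8.41 and 9.34 in the control group. SEMA6A replicate 1, the single-factor array lowest in Idh1, had a ratio within the range of the groups with both factors or neither. The other control ratios were not raised above control in the SEMA3A group. That of pyruvate carboxylase was 5.78 to 6.9 there and 7.01 to 8.26 in the control group. It was 6.86 to 15.5 in the SEMA6A group and 4.36 to 5.81 with both factors. In the SEMA3A and control groups Gapdh had 0.771 to 0.796 and 0.78 to 0.818, and actin 1.05 and 0.993 to 1.07. The summed signal of all 18 squamous markers, of which 13 passed the filter, was 2888 to 4566 on single-factor arrays and 2986 to 3641 on the others. Bright markers weigh most in such a sum. Gene by gene, the 13 had a median log2 difference from control of 0.36 for SEMA6A and 0.13 for SEMA3A, with 10 above 0 in each. It was 0.01 for both factors against control and -0.36 for both against SEMA6A. The 13 macrophage markers, of which 4 passed, summed to 665 to 976 on single-factor arrays and 626 to 794 on the others, and the defining marker Adgre1 had a median of 28. The 9 T cell markers named on the array, of which 8 passed, summed to 41811 to 53991 on single-factor arrays and 43872 to 51448 on the others. The part of these measures in the Idh1 values was not tested.

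The genes whose signals were most like that of Idh1 over the 12 arrays, by Pearson's r on the log2 scale, were Cep19 (0.97), Cdk5rap3, Afg3l2, Plin2 and Acot9 (0.96 each). These arrays share the groups that set Idh1 apart, so r is a description. Plin2, which coats lipid droplets, lay at 2321 to 4336 on single-factor arrays and 2028 to 2299 on the others. Acot9, a mitochondrial acyl-CoA thioesterase, lay at 3910 to 6570 and 3550 to 3951, just overlapping. Afg3l2, a subunit of a protease of the mitochondrial inner membrane, lay at 1513 to 2943 and 1331 to 1624. In all, 132 of 11324 genes (1.17%) had r of at least 0.9. Of the other measured enzymes Pgd came closest at 0.89, then Srxn1 and Me1 at 0.64 each, Nqo1 and Gclc at 0.22 each, Txnrd1 at -0.02, Gclm at -0.13 and Gsr at -0.15.

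Pgd encodes 6-phosphogluconate dehydrogenase, the second NADPH-forming step of the pentose phosphate pathway. Its brightest probe set, 1436771_x_at, gave 6059, 6179 and 6682 in the SEMA6A+SEMA3A group, 6280, 9964 and 7501 in the SEMA6A group, 7137, 7181 and 6333 in the SEMA3A group and 6111, 6183 and 6098 in the control group. In these signals all 3 SEMA6A arrays and all 3 SEMA3A arrays lay above the 3 control arrays, and SEMA6A replicate 2 was the highest array. On the normalized log2 scale the SEMA6A and control groups overlapped, with SEMA6A replicate 1 at 12.60 and control replicate 1 at 12.61. The lowest SEMA3A array, at 12.62, stayed above the control arrays on that scale. There, 12.1% of all genes had no overlap between the SEMA6A and control groups, and 17.2% none between the SEMA3A and control groups. The SEMA6A group averaged 7915 ± 1880 and the control group 6131 ± 45.5 (SD, n = 3 each). The log2 difference was 0.35 (SE 0.13, 95% interval 0.06 to 0.63), which did not pass over all genes (limma adjusted p = 0.475). Leaving out SEMA6A replicate 2 gave 0.16. Leaving out replicate 1 of that group gave 0.51, which passed (adjusted p = 0.0353).

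With both factors Pgd lay near the control, at a log2 difference of 0.03 (adjusted p = 1). Against SEMA6A alone it was -0.31 (SE 0.13, interval -0.60 to -0.03, limma adjusted p = 0.424), and against SEMA3A alone -0.13 (adjusted p = 0.717). The first of these was -0.13 when SEMA6A replicate 2 was left out, and -0.48, which passed (adjusted p = 0.0485), when replicate 1 of that group was. SEMA3A against control was 0.16 (adjusted p = 0.716).

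The other Pgd probe sets gave unequal values. 1437380_x_at read 5009, 4673 and 6165 in the SEMA6A+SEMA3A group, 6082, 9205 and 7092 in the SEMA6A group, 6678, 6686 and 6300 in the SEMA3A group and 5840, 5778 and 5234 in the control group. For 1437380_x_at the SEMA6A difference from control was 0.40, against 0.11 for 1423706_a_at and 0.50 for 1438627_x_at. On 1423706_a_at, SEMA6A replicate 2 was the lowest of its group at 2999, whereas it was the highest on the other 3. The suffix x marks probe sets whose probes may also bind other transcripts, and 1423706_a_at has no such mark. In the SEMA6A+SEMA3A group against SEMA6A alone, 1437380_x_at differed by -0.50 (limma adjusted p = 0.453 over all probe sets), 1423706_a_at by -0.12 and 1438627_x_at by -0.21.

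**Figure D2:**
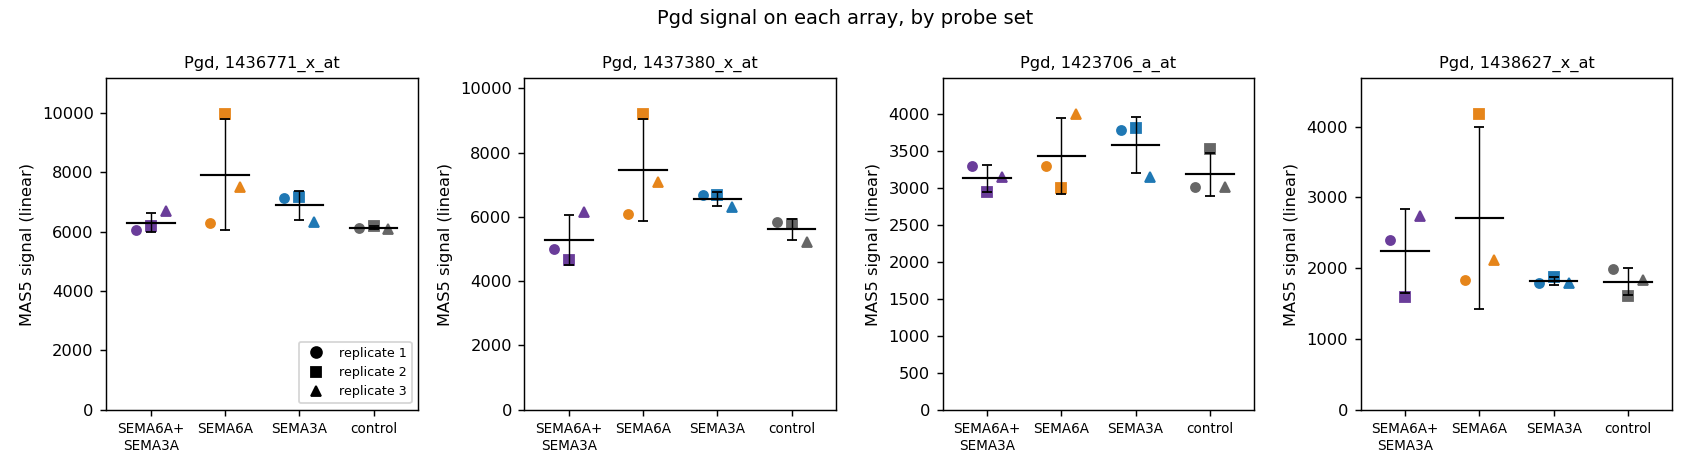
MAS5 signal (linear) of the 4 Pgd probe sets on each array, by group; marker shapes give the replicate number, lines the mean and bars the SD (n = 3). SEMA6A replicate 2 is the highest array on the 3 probe sets with the suffix x and the lowest of its group, at 2999, on 1423706_a_at.

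Me1 encodes cytosolic malic enzyme, which forms NADPH as it turns malate into pyruvate. The tested probe set 1430307_a_at was dim, with signals of 103, 105 and 84.9 in the SEMA6A+SEMA3A group, 80.9, 166 and 110 in the SEMA6A group, 167, 147 and 78.9 in the SEMA3A group and 95.9, 139 and 78.4 in the control group. The 4 groups overlapped. The largest difference, with both factors against SEMA3A alone, was -0.31 (SE 0.26, limma adjusted p = 0.641), and SEMA3A against control was 0.21 (SE 0.26, adjusted p = 0.814). These became -0.14 and 0.05 without SEMA3A replicate 1, and -0.56 and 0.46 without SEMA3A replicate 3. A second Me1 probe set, 1416632_at, was above the array median on 2 arrays and was not tested. It read 46.4, 12.7 and 16.8 in the SEMA6A+SEMA3A group, 42.2, 120 and 90 in the SEMA6A group, 23.2, 15.3 and 21.9 in the SEMA3A group and 13.1, 14.8 and 34.8 in the control group. SEMA6A arrays were the highest there, apart from SEMA6A+SEMA3A replicate 1, which lay above the lowest of them, and the pattern was not that of the tested probe set.

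**Figure D3:**
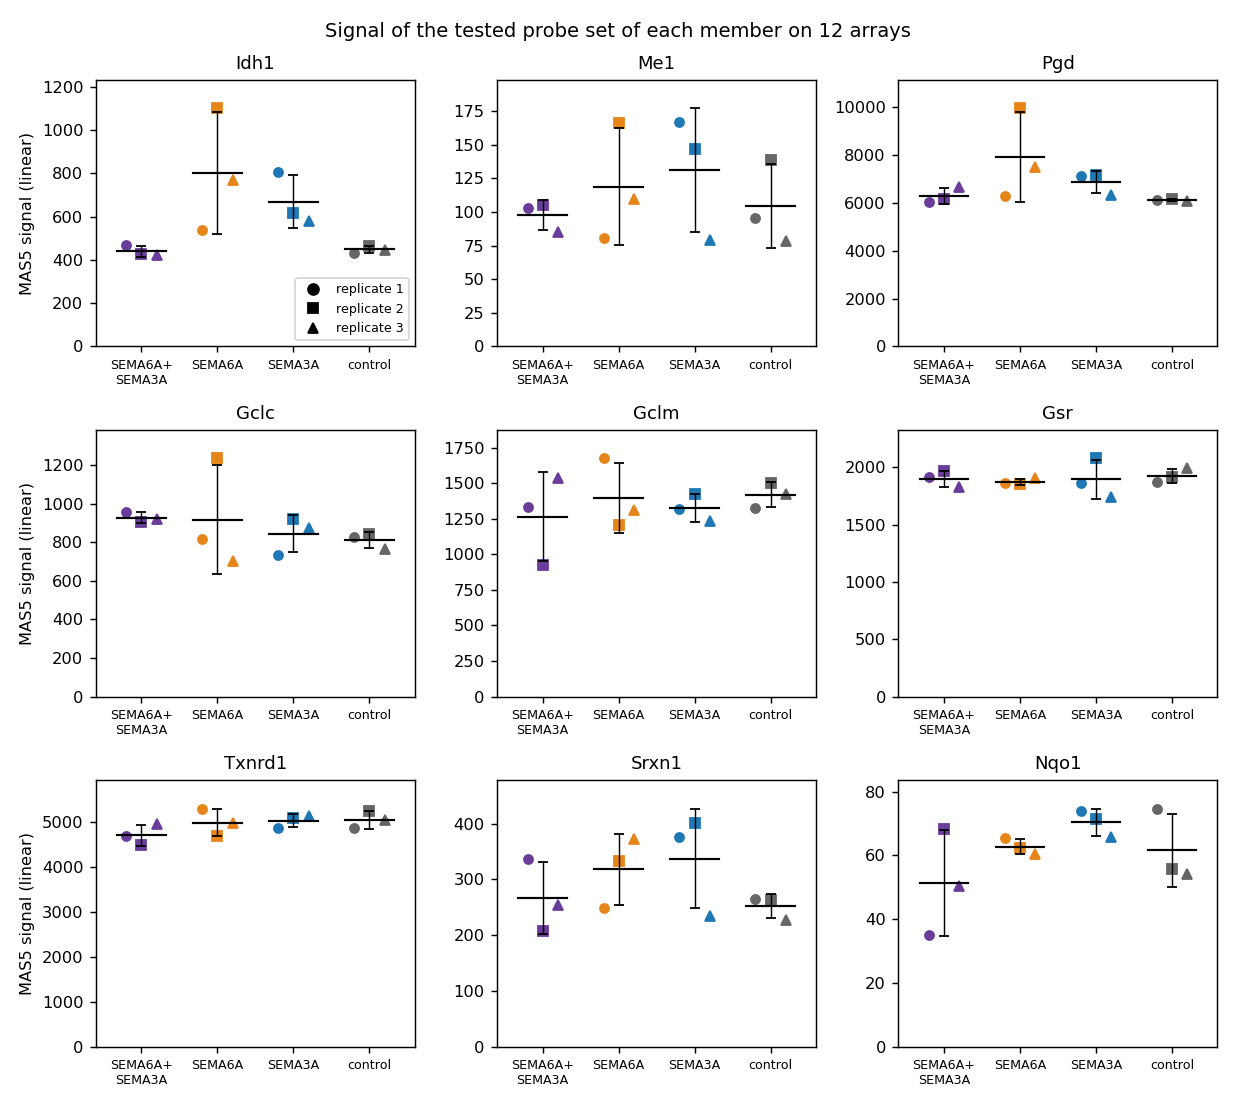
MAS5 signal (linear) of the tested probe set of each of the 9 genes on each array, by group; marker shapes give the replicate number, lines the mean and bars the SD (n = 3). Idh1 separates the single-factor arrays from the others, while Gsr (1421817_at) lies between 1745 and 2077 and Txnrd1 between 4475 and 5294 in all groups.

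Glutathione is made by glutamate-cysteine ligase, whose catalytic subunit is Gclc and whose modifier subunit is Gclm, and is kept reduced by the NADPH-dependent reductase Gsr. Gclc read 958, 904 and 921 in the SEMA6A+SEMA3A group, 818, 1235 and 701 in the SEMA6A group, 736, 923 and 875 in the SEMA3A group and 830, 845 and 764 in the control group. All 3 arrays with both factors lay above the control arrays, as the groups of 15.1% of all genes did not overlap in this comparison, and the log2 difference of 0.21 did not pass (95% interval -0.15 to 0.57, limma adjusted p = 1). The other Gclc probe set, 1424296_at, gave -0.26 for the same comparison, from signals of 617, 478 and 666 in the SEMA6A+SEMA3A group and 808, 732 and 606 in the control group. The probe sets of Gclc thus disagreed in direction.

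Gclm and Gsr gave no difference past the threshold. Gclm read 1334, 922 and 1536 in the SEMA6A+SEMA3A group, 1674, 1204 and 1309 in the SEMA6A group, 1316, 1427 and 1231 in the SEMA3A group and 1327, 1501 and 1426 in the control group. Between the SEMA6A+SEMA3A and control groups it differed by -0.17 (interval -0.53 to 0.20, limma adjusted p = 1), and by 0.04 without SEMA6A+SEMA3A replicate 2. A dimmer Gclm probe set, 1439050_at, with signals of 65 to 152, gave -0.25 there. For SEMA3A against control it gave 0.22 and the brighter one -0.08. With both factors against SEMA3A it gave -0.47 (SE 0.27, limma adjusted p = 0.515 over all probe sets) and the brighter one -0.08. The brighter Gsr probe set, 1421817_at, read 1911, 1965 and 1827 in the SEMA6A+SEMA3A group, 1865, 1852 and 1904 in the SEMA6A group, 1864, 2077 and 1745 in the SEMA3A group and 1874, 1912 and 1992 in the control group. Its log2 difference in SEMA6A cultures against control was -0.03 (interval -0.22 to 0.16, adjusted p = 0.906). The dimmer one, 1421816_at, varied more, with 1022, 974 and 814 in the SEMA6A+SEMA3A group, 1249, 537 and 1246 in the SEMA6A group, 1185, 1423 and 849 in the SEMA3A group and 1080, 1238 and 947 in the control group. SEMA6A replicate 2 was the lowest array on it, and SEMA6A differed from control by -0.19 (adjusted p = 0.794 over all probe sets).

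Thioredoxin is kept reduced by the selenoenzyme thioredoxin reductase, Txnrd1 in the cytosol, and sulfiredoxin, Srxn1, repairs over-oxidized peroxiredoxins. Txnrd1 read 4675, 4475 and 4948 in the SEMA6A+SEMA3A group, 5294, 4688 and 4970 in the SEMA6A group, 4864, 5080 and 5126 in the SEMA3A group and 4852, 5244 and 5032 in the control group. The SEMA6A+SEMA3A group differed from the control by -0.11 (interval -0.26 to 0.05, limma adjusted p = 1). The dimmer Txnrd1 probe set 1424486_a_at read 75.7, 30.1 and 72.6 in the SEMA6A group against 82.5, 80.7 and 94.8 in the control group, with SEMA6A replicate 2 far the lowest. It read 74, 76 and 63.7 in the SEMA3A group and 77.3, 90.2 and 84.8 in the SEMA6A+SEMA3A group. The difference from control was -0.54 for SEMA6A and -0.27 for SEMA3A (limma adjusted p = 0.512 and 0.764 over all probe sets). A further one, 1424487_x_at, at 2.79 to 44.1, was below the filter and not tested.

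Srxn1 had its highest means in the single-factor groups, with overlap. It read 336, 208 and 254 in the SEMA6A+SEMA3A group, 249, 332 and 373 in the SEMA6A group, 376, 401 and 235 in the SEMA3A group and 265, 263 and 227 in the control group. In each single-factor group 2 of 3 arrays lay above all control arrays and the third did not. The log2 difference from control was 0.30 for SEMA6A (SE 0.20, limma adjusted p = 0.558) and 0.35 for SEMA3A (SE 0.20, adjusted p = 0.607), and neither passed. They ranged from 0.19 (without SEMA6A replicate 3) to 0.43 (without SEMA6A replicate 1) and from 0.23 (without SEMA3A replicate 2) to 0.56 (without SEMA3A replicate 3). The 3 other Srxn1 probe sets were dimmer, at signals of 27.6 to 177, and unequal. 1451680_at differed from control by 0.35 for SEMA6A and by 0.35 for SEMA3A (SE 0.17 each, limma adjusted p = 0.517 and 0.601 over all probe sets). For SEMA6A and SEMA3A against control, 1419942_at gave 0.44 and 0.02, and 1425351_at gave -0.14 and -0.21.

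Nqo1 encodes a quinone reductase that uses NADH or NADPH, and is a much used readout of NRF2. Its single probe set was dim, with signals of 35.2, 68.4 and 50.5 in the SEMA6A+SEMA3A group, 65.5, 62.3 and 60.6 in the SEMA6A group, 73.9, 71.4 and 65.7 in the SEMA3A group and 74.7, 55.8 and 54.2 in the control group. SEMA6A+SEMA3A replicate 1 was the lowest array. With both factors against SEMA3A alone the log2 difference was -0.43 (interval -0.90 to 0.03, limma adjusted p = 0.457), and against control -0.33 (-0.79 to 0.14, adjusted p = 1). Without SEMA6A+SEMA3A replicate 1 these were -0.24 and -0.13.

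Of the 8 genes other than Idh1, none passed an adjusted p of 0.05 in any of the 6 comparisons, and neither did any of the 11325 genes (0% in each). At an unadjusted p under 0.05, 1 of 8 genes (Pgd) was reached in SEMA6A against control, where 10.5% of all genes were. It was not reached without SEMA6A replicate 2, without control replicate 3, with the probe set of the largest interquartile range or with only the arrays compared. The same gene was the 1 of 8 for both factors against SEMA6A, beside 11.5% of all genes. There it was not reached without any 1 of SEMA6A replicates 2 and 3 and SEMA6A+SEMA3A replicates 1 and 2, with that probe set, with only the arrays compared or with no trend in the prior. Gclc was reached there without SEMA6A replicate 2, and in both factors against control with only the arrays compared. In the main fit none of the 8 was reached in SEMA3A against control (8.74% of all genes), in both factors against control (4.11%), in both factors against SEMA3A (11.2%) or in SEMA6A against SEMA3A (4.28%). These shares are near or below those of all genes. Under alternatives, Srxn1 was reached in SEMA3A against control without SEMA3A replicate 3. In both factors against SEMA3A, Srxn1 was reached without that array or without SEMA6A+SEMA3A replicate 1. Nqo1 was reached there without SEMA6A+SEMA3A replicate 2 or with no prior trend. Counting every probe set added Pgd there and Txnrd1 in SEMA6A against control. Pgd was reached in SEMA6A against SEMA3A without SEMA6A replicate 1.

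The direction of these 8 differences varied with the comparison. In SEMA6A against control 4 of 8 lay above 0, with a median of 0.04, beside 53.3% of all genes with a median of 0.019. In SEMA3A against control 5 of 8 lay above 0, with a median of 0.08 (51.7% of all genes, median 0.007). In both factors against control 4 of 8 lay above 0 (53.4%) and the median was -0.05, and in SEMA6A against SEMA3A 3 of 8 did (53%), with a median of -0.02. With both factors against a single one, 2 of 8 lay above 0 in each comparison, with medians of -0.11 against SEMA3A (51.4% of all genes above 0) and -0.17 against SEMA6A (49.8%). These comparisons share arrays. The single-factor difference was above 0 for 6 of 8 (50.5% of all genes), with a median of 0.12, against 0.67 for Idh1, which was chosen on it. The 6 were Srxn1 at 0.29, Pgd at 0.24, Me1 and Nqo1 at 0.21 each, Txnrd1 at 0.04 and Gclm at 0.03, while Gclc was at -0.01 and Gsr at -0.02. Without SEMA6A replicate 2 it was 0.14 for Pgd, 0.09 for Me1, 0.08 for Gclm, -0.12 for Gclc and -0.01 for Gsr.

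**Figure D4:**
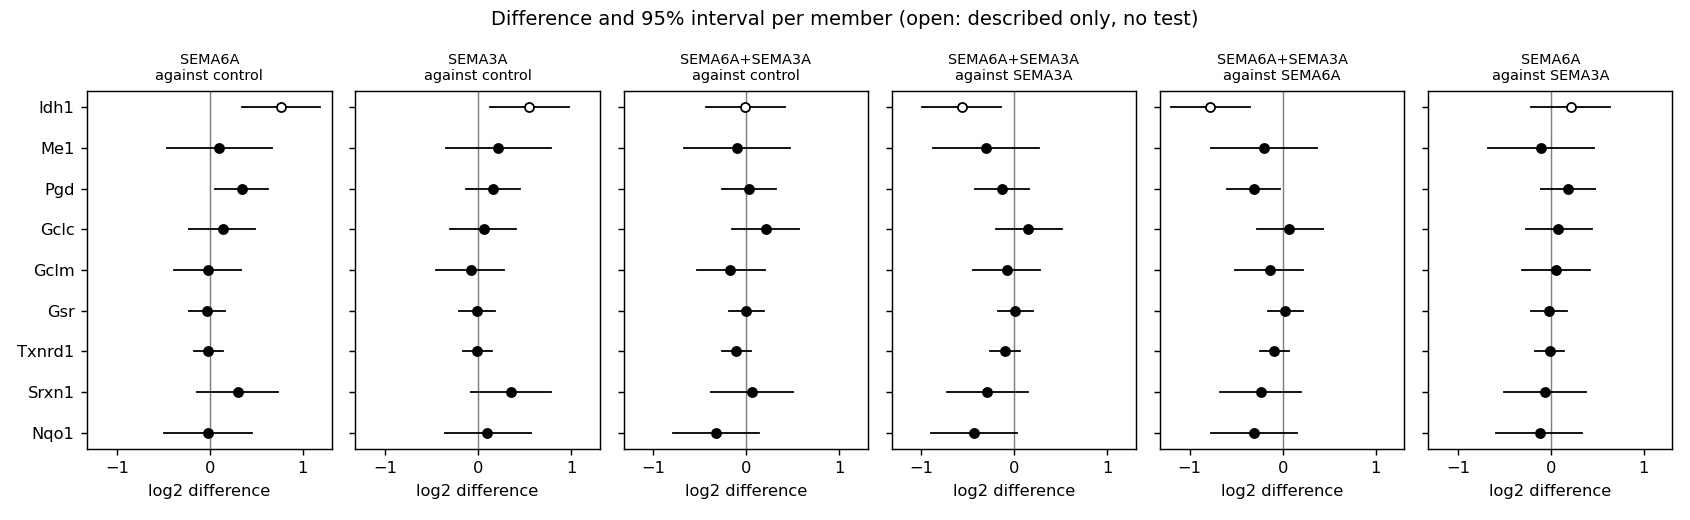
Log2 difference on the scale of log2(signal + 16) with its 95% interval (limma) for each of the 9 genes in 6 comparisons. Open points are Idh1, which was chosen on these arrays and is shown with no test result. Its intervals are drawn as a description only. Idh1 was chosen because single-factor arrays differed from the others, so whether its interval crosses 0 is no test. Idh1 is at 0.77 for SEMA6A and 0.55 for SEMA3A against control and at -0.01 with both factors, while the intervals of the other genes cross 0 except those of Pgd in SEMA6A against control and in both factors against SEMA6A.

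The wider pathway was read through 8 lists of other genes with 107 members, of which 100 were named on the array and 91 were tested. None passed in any comparison. At an unadjusted p under 0.05, 8 were higher and 3 lower in SEMA6A against control (12.1% of 91, beside 10.5% of all genes), and 6 were higher and 6 lower in SEMA3A against control (13.2%, beside 8.74%). With both factors against control 4 were higher and 2 lower (6.59%, beside 4.11%). With both factors against SEMA3A 3 were higher and 8 lower (12.1%, beside 11.2%), and against SEMA6A 5 were higher and 9 lower (15.4%, beside 11.5%). In SEMA6A against SEMA3A 1 was higher and 3 were lower (4.4%, beside 4.28%). Medians over the 91 were between -0.06 and 0.06 in the 6 comparisons.

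Values follow for the 2 genes of each list with the smallest p, none of which passed. Among 11 other sources of NADPH, Mthfd2l, a mitochondrial folate enzyme, read 251, 270 and 258 in the SEMA6A+SEMA3A group and 143, 155 and 161 in the SEMA3A group, with no overlap between them, as for 21.1% of all genes (difference 0.74, SE 0.21, limma adjusted p = 0.402). Its paralog Mthfd2 differed the other way in that comparison, by -0.30 (adjusted p = 0.404), and by -0.18 without SEMA3A replicate 1. Among 11 other pentose phosphate enzymes Prps1, which makes phosphoribosyl pyrophosphate, read 3329, 3144 and 3165 in the SEMA6A+SEMA3A group and 4288, 5176 and 4138 in the control group, and the groups differed by -0.49 (adjusted p = 0.948). Prps1 was lower than control with a single factor too, at -0.45 for SEMA3A and -0.32 for SEMA6A (limma adjusted p = 0.551 and 0.475). Taldo1, transaldolase, differed by 0.27 in SEMA3A against control (adjusted p = 0.551).

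Among 24 other glutathione enzymes, the glyoxalase pathway enzyme Hagh read 794, 546 and 715 in the SEMA6A group and 917, 991 and 870 in the control group, a log2 difference of -0.43, or -0.27 without SEMA6A replicate 2. The glutathione transferase Gstp1 read 7870, 8964 and 9021 in the SEMA6A group and 7247, 7145 and 6976 in the control group, and differed by 0.27 (limma adjusted p = 0.475 for each). Both passed only without SEMA6A replicate 1, of the arrays left out in turn. Among 14 thioredoxins and peroxiredoxins and their partners, Msrb1, a methionine sulfoxide reductase, read 1249, 1369 and 1181 in the SEMA6A group and 947, 849 and 915 in the control group, at 0.48 (adjusted p = 0.475). Mitochondrial thioredoxin, Txn2, stood at 0.41 with both factors against SEMA6A (adjusted p = 0.424), at -0.03 when SEMA6A replicate 2 was left out and at 0.56, which passed, when replicate 1 of that group was. Of the 4 tested superoxide dismutases and catalase genes and their partners, Ccs, the copper chaperone of Sod1, differed by 0.27 and Sod1 by 0.17 in SEMA3A against control (adjusted p = 0.551 and 0.588).

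Of 10 regulators of NRF2, Mafk, a small MAF partner, read 629, 863 and 812 in the SEMA6A+SEMA3A group and 433, 477 and 616 in the SEMA3A group, a log2 difference of 0.61. Sqstm1, the autophagy receptor that binds KEAP1, read 3475, 3721 and 3270 in the SEMA6A+SEMA3A group and 6447, 5229 and 4042 in the SEMA3A group, a difference of -0.56 (limma adjusted p = 0.402 for each). The groups did not overlap for either gene, as for 21.1% of all genes in this comparison. Of 13 other NRF2 targets, the dim biliverdin reductase gene Blvrb differed by 0.74 with both factors against SEMA6A (adjusted p = 0.424) and the dim Gpx2 by -0.96 in SEMA6A against SEMA3A (adjusted p = 0.963). Of 4 tested genes of the phagocyte NADPH oxidase, Ncf1 read 230, 146 and 237 in the SEMA6A+SEMA3A group and 246, 472 and 627 in the SEMA6A group, a difference of -1.01 (adjusted p = 0.424), and passed without SEMA6A replicate 1, at -1.35. Rac2 differed by -0.23 in SEMA6A against SEMA3A (adjusted p = 0.963), and by -0.07 without SEMA6A replicate 2.

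**Figure D5:**
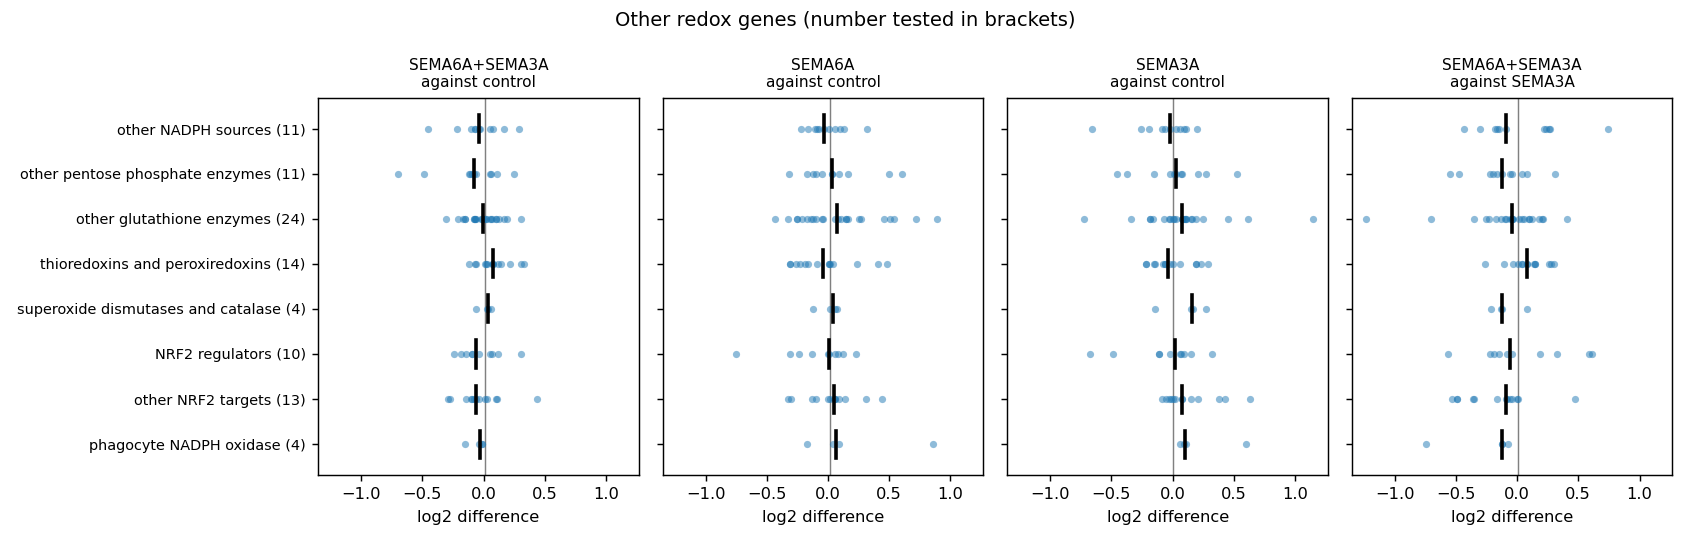
Log2 difference of each tested gene (points) in 8 lists of other redox genes, with the list median (bar), in 4 comparisons; the number of tested genes is in brackets. The points lie on both sides of 0 in most lists and none passed the threshold.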

How the data were processed

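Splenocyte RNA of 12 arrays was measured as biotin-labelled cRNA. The authors deposited an intensity per probe set (per the submitters' processing notes, by MAS5), with the mean trimmed of 2% at each end equal to 500 on every array. Of 45101 probe sets 64 were controls, and 34945 named 1 gene in the platform table. Here signals were taken as log2(signal + 16), quantile normalized, since array medians differed by a factor of 1.26, and filtered (24366 kept), and the brightest probe set of each gene was kept (11325 genes). limma 3.58.1 in R 4.3.3 fitted 1 mean per group with a trended prior, with 2-sided p-values adjusted by Benjamini-Hochberg at 0.05. The pseudocount understates changes of dim genes. The median standard error was 0.153. Precision is limited by how few arrays there are.

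The genes and lists were chosen with earlier results of these data known. The genes named are all 10 enzymes, the 2 genes of each list with the smallest p, and the 5 most like Idh1. The single-factor difference was described, not tested. In data simulated for SEMA6A against control on 11325 genes, with 200 changed, 41.9% of 1.5-fold and 73.1% of 2-fold changes were recovered, with 5.54% false calls. The simulated noise was independent for each gene and array. Deviations that many genes share on 1 array were not simulated, so these rates may not hold for the real arrays. Motifs were searched with Python 3.11.15. Alternatives were other normalization, pseudocounts, filters, probe sets, priors and arrays, a replicate block and leaving out each array.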

Additional observations from a re-analysis of the deposited data

Results flagged for a closer look

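The following values call for a closer look. For Idh1 the log2 difference of SEMA6A against control (0.77) exceeded that of SEMA6A+SEMA3A against SEMA3A (-0.56) by 1.33. Idh1 was chosen on this contrast, so the gap was not tested. For Pgd the same gap was 0.47 (0.35 and -0.13). It uses the contrast on which Idh1 was chosen and was not tested. The untested Me1 probe set 1416632_at had a mean signal of 83.9 in the SEMA6A group, against 20.9 in the control group, and lay below the filter. With 3 arrays a group, single arrays far from the others were not tested for.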

How the results depend on the processing

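The count of enzymes past the threshold was 0 in each of the 6 comparisons under every alternative except leaving out SEMA6A replicate 1. Over the arrays left out in turn it ranged from 0 to 1 in SEMA6A against control and from 0 to 1 in SEMA6A+SEMA3A against SEMA6A, the 1 being Pgd. Without that array 512 and 381 of 11258 genes passed in these comparisons, as did Gstp1 (0.35), Hagh (-0.55), Txn2 (0.56) and Ncf1 (-1.35). Over all genes the only other counts above 0 in the 6 comparisons were in SEMA6A+SEMA3A against control (2 genes with only the arrays compared, and 1 each with the probe set of the largest interquartile range, without SEMA6A replicate 1 and without SEMA3A replicate 3) and in SEMA6A+SEMA3A against SEMA6A (1 with no prior trend). The cause of the change without SEMA6A replicate 1 was not tested. Idh1 entered the count of enzymes only in SEMA6A+SEMA3A against control and in SEMA6A against SEMA3A, and no test result is given for it.

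With the probe set of the largest interquartile range, Sod1 in SEMA3A against control turned to -0.18, Gclc in SEMA6A+SEMA3A against control to -0.26 and Pgd in SEMA6A+SEMA3A against SEMA3A to 0.27, since another probe set then stands for the gene. The single-factor difference of Txnrd1 was then -0.36. Leaving out arrays in turn, SEMA6A+SEMA3A against control ranged from -0.05 to 0.02 for Idh1, from -0.32 to 0.04 for Gclm and from -0.01 to 0.06 for Pgd. SEMA6A against SEMA3A ranged from -0.03 to 0.46 for Idh1, and SEMA6A+SEMA3A against SEMA6A from -0.03 to 0.56 for Txn2. The single-factor difference of Idh1 ranged from 0.54 to 0.79.

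Replicate numbers did not pair the arrays: deviations of same-numbered arrays correlated at -0.36 to 0.14 over 18 pairs, with 1 over 0.1, against -0.23 to 0.42 over 36 other pairs. With the replicate block the count stayed at 0 in all 6 comparisons, and Pgd in SEMA6A against control was 0.35 (adjusted p = 0.548).

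The median 95% interval, which is not adjusted over genes, reached 0.33 to each side on the log2 scale. Smaller differences than that could not be resolved for a typical gene even before adjustment. Larger ones did not pass after it in the main fit, such as -1.01 for Ncf1 in SEMA6A+SEMA3A against SEMA6A. Dim probe sets (Nqo1, Me1, Gpx2, Blvrb) are the least certain.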
